A study of Homo sapiens with 8 samples.

Results

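The zinc finger genes whose symbol is ZNF and a number were examined in HCT116 cells, a human colorectal cancer line, after knockdown of HHEX, of YAP and TAZ, or of the TEAD factors. Members were selected on their level in the control cells, as the ZNF genes whose mean over both control libraries was at least 2 FPKM. This gave 160 genes, out of 517 rows named ZNF and a number and 20030 rows in all. FPKM is the fragment count of a gene per transcript length and library size. RNA was sequenced in 8 libraries. Of these, 2 were from cells given a control siRNA (siNC) and 3 from cells depleted of HHEX (siHHEX). In another 2 the siRNAs targeted YAP1 together with the TAZ gene WWTR1 (siYAP/TAZ), and in 1 they targeted TEAD1 to TEAD4 at once (siTEAD1/2/3/4). By the labels all libraries came from the same line and differ in the siRNA. The siHHEX 3 library carries its knockdown under another label field than the rest, and whether it was made or sequenced with them is not stated. The methods list a separate numbered siRNA for the numbered siHHEX and siYAP/TAZ libraries, so a replicate of a knockdown appears to be another siRNA too, and list 1 sequence for siNC. Nothing in the labels says that the libraries of a group came from separate cultures, so the p-values measure only the spread between these libraries.

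ZNF genes encode proteins with C2H2 zinc fingers, short folds in which a pair of cysteines and a pair of histidines hold a zinc ion. Fingers in tandem read DNA base by base, and many members carry a KRAB box, which recruits the corepressor TRIM28 and with it histone methylation and heterochromatin. KRAB zinc finger genes are known for silencing transposable elements and lie in clusters of close relatives, largely on chromosome 19. Other ZNF proteins bind RNA, ubiquitinate ribosomes or take part in ribosome assembly. HHEX is a homeobox factor, and YAP and TAZ are coactivators that bind DNA through TEADs.

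The family at this level was mixed in its proteins. The pattern of a C2H2 finger was found between 0 and 36 times in the translated transcripts of the 160 members, with a median of 8 fingers. A KRAB box was called from the letters LYxxVMxE, where x is any residue, and was found in 42 members. KRAB genes and KRAB members below are those with these letters. A box with other letters is missed, so members without the letters may still hold one. Another 100 members had 3 or more fingers and no such letters, and 18 had fewer than 3 fingers. In 5 of these 18, ZNF185, ZNF330, ZNF503, ZNF703 and ZNF839, the pattern was not found. Fingers of another spacing are not counted by it, so these genes may still hold some. Chromosome 19 held 51 members, 31.9% of the family, against 6.71% of the other genes with at least 2 FPKM in siNC. Chromosomes 16, 7 and 1 followed with 19, 14 and 12 members.

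The members also differed in base composition. Transcripts of the family ran from AT-rich to GC-rich, and the difference can be read in a stretch that many classical fingers share, the linker that joins one finger to the next. The first linker of 3 genes that were lower and of 3 that were higher in siHHEX is shown from the last histidine codon of a finger to the first cysteine codon of the next, a run of 9 codons. Capitals mark a G or a C at the third position of a codon. They are the first named genes of either direction in which the linker was found.
ZNF367: caCacCggagaGaaaccttttgtttgt
ZNF24: caCactggagaaaaaccttaCaaatgt
ZNF215: caCacaggagaGaaaccCtataaatgC
ZNF629: caCacCggCgaGaaGccCtaCaaGtgC
ZNF358: caCacGggCgaGcgGccCtaCccGtgt
ZNF76: caCactggtgaGaaaccataCaaGtgC

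These stretches lie in coding exons of GRCh38, in GENCODE 44, at chr9:96394833-96394859 on the minus strand (ZNF367), chr18:35337412-35337438 on the minus strand (ZNF24), chr11:6956178-6956204 on the plus strand (ZNF215), chr16:30783704-30783730 on the minus strand (ZNF629), chr19:7520095-7520121 on the plus strand (ZNF358) and chr6:35291307-35291333 on the plus strand (ZNF76). The 6 linkers encode nearly the same residues, yet 3, 2 and 4 of the 9 codons ended in G or C in ZNF367, ZNF24 and ZNF215, against 9, 8 and 5 in ZNF629, ZNF358 and ZNF76. A single linker need not stand for its gene. Over the whole coding sequence, 70.9% of the codons of ZNF367 ended in G or C, more than the 67.9% of ZNF76, against 38.9% in ZNF24, 41.2% in ZNF215, 82.7% in ZNF629 and 75.5% in ZNF358. A linker was found in 104 members, 481 in all. The median per gene was 3 of 9 codons ending in G or C where the whole transcript was under 45% GC, and 8 of 9 where it was 60% GC or more. Over whole coding sequences, the share of codons that ended in G or C ran from 28.1% to 92.9% among members, with a median of 46.2% in KRAB members and 63.7% in the other members with 3 or more fingers.

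Members were weakly expressed. The siNC mean ran from 2.02 to 106.9 FPKM with a median of 4.40 FPKM, 71 members were under 4 FPKM, and 14 were at 16 FPKM or more. The highest was ZNF593, a factor of the assembly of the large ribosomal subunit, at 106.9 ± 3.41 FPKM (SD, n = 2). ZNF207, which binds microtubules and takes part in spindle assembly, followed at 70.6 ± 1.15 FPKM and ZNF146, which consists almost wholly of fingers, at 32.3 ± 1.48 FPKM. ZNF664 and ZNF511 were at 26.7 and 26.5 FPKM. The next were ZNF598, a ubiquitin ligase that marks collided ribosomes, at 19.8 FPKM, and ZNF622, another ribosome assembly factor, at 19.4 FPKM, and then ZNF330, ZNF581 and ZNF428 at 18.96, 18.6 and 17.6 FPKM. Of these 10 genes, none held the KRAB letters. KRAB members had a median siNC mean of 2.70 FPKM, against 4.84 FPKM in the other members with 3 or more fingers and 8.49 FPKM in those with fewer.

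The threshold fell in a dense part of the range. ZNF267, ZNF714 and ZNF468 were just inside it at 2.02, 2.04 and 2.05 FPKM, and ZNF620, ZNF304 and ZNF749 just outside at 1.97, 1.96 and 1.94 FPKM. Below the threshold were 357 ZNF rows, of which 75 were listed at 0 in all 8 libraries. All 160 members passed the filter for the tests, at least 1 FPKM in at least 2 libraries, which left 10677 genes of any name. A member at the threshold is known less precisely than its siNC mean tells. ZNF714 was at 1.69 and 2.39 FPKM in the siNC libraries. Over the family the median absolute difference between the siNC libraries was 0.09 on the log2(FPKM + 1) scale and the largest 0.45, and 0 members differed by more than 1.5-fold. Changes are given on this scale, which understates the change of low genes.

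Read counts were not used, so the depth of the libraries is unknown. FPKM summed to between 331663 in siYAP/TAZ 1 and 383423 in siHHEX 3, and the spacing of the lowest values gave an indirect estimate of relative depth between 0.927 and 1.11 times that of siNC 1. The members took 0.329% and 0.331% of all FPKM in siNC, 0.303%, 0.331% and 0.316% in siHHEX, 0.355% and 0.349% in siYAP/TAZ and 0.354% in siTEAD1/2/3/4. In bulk samples, fewer cells of a type and less RNA per cell cannot be told apart. The epithelial markers EPCAM, CDH1, KRT8, KRT18 and KRT19 were at 167.9, 9.34, 1649, 908.7 and 706.9 FPKM in siNC, while VIL1, of the intestinal brush border, was near 0 in all 8 libraries. KRT8 and KRT18 fell in siYAP/TAZ, with log2 changes of -0.88 and -1.22 (adjusted p = 0.00227 and 0.000861 in limma). In siHHEX, EPCAM and KRT18 fell, with -0.38 and -0.29 (adjusted p = 0.0289 and 0.0348 in limma). Set against siYAP/TAZ, siHHEX was higher in KRT8, KRT18 and KRT19, by 0.91, 0.93 and 0.58 (adjusted p = 0.00237, 0.00237 and 0.0163 in limma). The 6 epithelial markers summed to 3371 and 3513 FPKM in siNC, 3114, 3439 and 3654 FPKM in siHHEX, 2027 and 1973 FPKM in siYAP/TAZ and 2712 FPKM in siTEAD1/2/3/4. The 6 markers of fibroblasts, leukocytes and endothelium (COL1A1, COL1A2, DCN, PTPRC, PECAM1 and CDH5) summed to 0.942 and 0.831 FPKM in siNC, 0.875, 0.668 and 1.67 FPKM in siHHEX, 1.21 and 2.50 FPKM in siYAP/TAZ and 1.61 FPKM in siTEAD1/2/3/4. Most of each sum was COL1A1, a fibroblast collagen, at 0.915 and 0.821 FPKM in siNC, 0.859, 0.647 and 1.37 FPKM in siHHEX, 1.19 and 2.04 FPKM in siYAP/TAZ and 1.59 FPKM in siTEAD1/2/3/4. For COL1A1 the log2 change with YAP and TAZ depleted was 0.47 (adjusted p = 0.183 in limma). COL1A2, DCN and PTPRC were highest in siYAP/TAZ 2 and siHHEX 3, at 0.273, 0.0825 and 0.0786 FPKM in the former and 0.124, 0.0475 and 0.101 FPKM in the latter. In siNC these 3, PECAM1 and CDH5 were at or near 0. The part of these markers in the results below was not tested.

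The labels were checked on their target genes. HHEX was at 8.6 and 9.06 FPKM in siNC, at 3.25, 3.54 and 1.85 FPKM in siHHEX and at 4.8 and 7.12 FPKM in siYAP/TAZ, so it was lowest in the libraries labelled for it. WWTR1 was at 6.80 and 6.72 FPKM in siNC and 2.64 and 2.58 FPKM in siYAP/TAZ. YAP1 was at 20.2 and 19.7 FPKM in siNC and 6.90 and 8.39 FPKM in siYAP/TAZ, and was also at 5.77 and 6.93 FPKM in siHHEX 1 and 3 but at 17.4 FPKM in siHHEX 2. In the siTEAD1/2/3/4 library the log2 differences from siNC were -0.97 for TEAD1, -0.36 for TEAD2, 0.30 for TEAD3 and -1.73 for TEAD4, so that TEAD3 was not lower there. TEAD1 was also low in siHHEX, at 6.99, 10.2 and 5.30 FPKM against 18.3 and 19.04 FPKM in siNC and 9.02 FPKM in siTEAD1/2/3/4, with siHHEX 1 and 3 below and siHHEX 2 above the siTEAD1/2/3/4 value (siHHEX log2 change -1.25, adjusted p = 0.0064 in limma).

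In siHHEX, members changed in both directions, at shares near those of all tested genes. Against siNC, 21 of the 160 members fell and 19 rose in limma's test at an adjusted p under 0.05, with the Benjamini-Hochberg adjustment over all 10677 genes. The same test called 16.9% of all tested genes lower and 16.0% higher, so the members' 13.1% and 11.9% were near the background. The difference was not tested. With no filter on low values, 3.13% and 5.63% of members were called, against 2.06% and 2.87% of all rows. All rows include 9353 below the filter, so these shares are not of genes at like levels. The median change of the members was -0.04 on the log2 scale, against -0.01 over all tested genes. Counted library by library, 56 members were lower in all 3 siHHEX libraries than in both siNC libraries (35.0%) and 43 were higher (26.9%), where 33.8% and 33.1% of all tested genes were. The study used more than 2-fold with p under 0.05 as its criterion, on counts. With the same limits on limma's fit, unadjusted, 1 member, ZNF219, was called higher and 0 lower on the log2(FPKM + 1) scale, against 0.702% and 0.927% of all tested genes. With the fold taken from the group means of FPKM, without the added 1, ZNF219, ZNF76, ZNF629 and ZNF358 were called higher and ZNF217 and ZNF280B lower, 2.5% and 1.25% of members against 2.44% and 2.32% of all tested genes. The calls at an adjusted p under 0.05 needed both controls. Without siNC 1 or without siNC 2, limma called 0 members in either direction. Of all 10677 genes it then called 9 lower and 10 higher without siNC 1, and 12 and 15 without siNC 2. Without siNC 1 the members' median change was -0.04, against -0.002 over all tested genes. Without siNC 2 it was -0.015, against -0.009. Without siHHEX 2, 41 members were called lower, 25.6% against 24.9% of all tested genes, and without siHHEX 1 8 were, 5% against 9.08%.

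**Figure D1:**
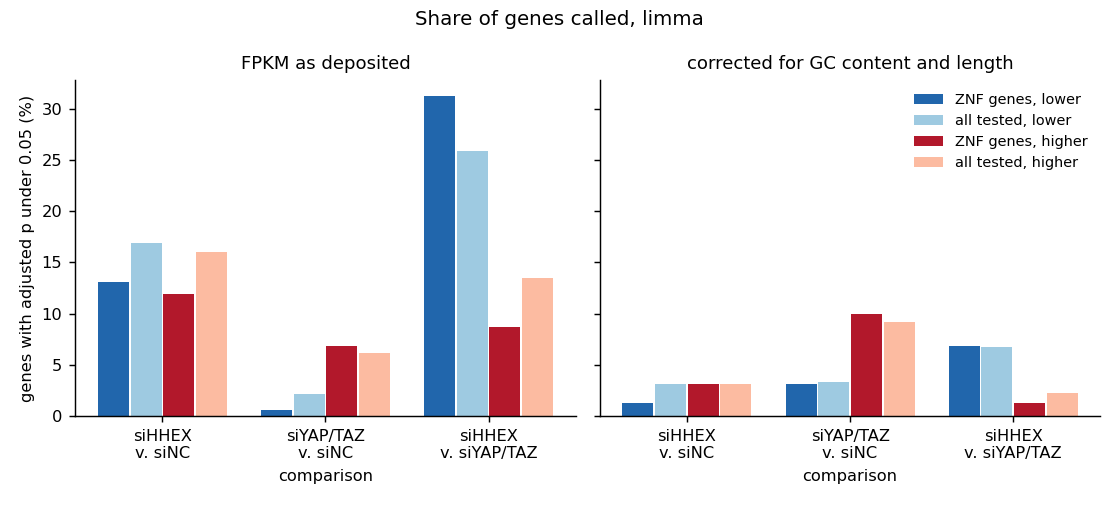
Share of genes with an adjusted p under 0.05 in limma, for the 160 ZNF genes (dark bars) and all tested genes (pale bars), lower in blue and higher in red, with FPKM as deposited (left) and after the composition correction for GC content and length (right). ZNF genes lower in siHHEX fell from 13.1% to 1.25% with the correction, and those higher from 11.9% to 3.13%.

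ZNF24, a SCAN domain protein that represses VEGFA, had the most even fall of the 8 lowest members. It was at 15.97 and 16.2 FPKM in siNC and at 8.56, 8.66 and 7.54 FPKM in siHHEX, a log2 change of -0.89 ± 0.13 (SE, adjusted p = 0.0047 in limma). The siHHEX libraries lay far below all other libraries, since siYAP/TAZ was at 15.5 and 19.2 FPKM and siTEAD1/2/3/4 at 15.5 FPKM. ZNF217, an oncogene of chromosome 20 that is amplified in breast cancer and works with corepressors, was at 5.62 and 5.91 FPKM in siNC and at 2.12, 3.20 and 2.56 FPKM in siHHEX, a log2 change of -0.91 ± 0.16 (adjusted p = 0.00744 in limma). Its siYAP/TAZ values of 3.98 and 5.31 FPKM and its siTEAD1/2/3/4 value of 4.40 FPKM lay between those of siHHEX and siNC.

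ZNF639 and ZNF367 were lowest in siHHEX 1 and 3. ZNF639 was at 16.7 and 15.7 FPKM in siNC and at 6.45, 11.7 and 7.17 FPKM in siHHEX, a log2 change of -0.91 ± 0.21 (adjusted p = 0.0138 in limma). ZNF367 was at 9.91 and 9.8 FPKM in siNC and at 4.67, 6.76 and 3.51 FPKM in siHHEX, a log2 change of -0.90 ± 0.20 (adjusted p = 0.0129 in limma). For both, siHHEX 2 sat nearest to siNC among the siHHEX libraries. ZNF507, ZNF451, a SUMO ligase, and ZNF215 also fell, with log2 changes of -0.79, -0.74 and -0.68 (adjusted p = 0.00782, 0.0219 and 0.033 in limma). ZNF451 and ZNF215 lost the call without siHHEX 1, with adjusted p = 0.0611 and 0.078 in limma, and ZNF215 also without siHHEX 3. ZNF770 missed the threshold, at 17.0 and 16.5 FPKM in siNC and 8.95, 15.2 and 7.83 FPKM in siHHEX (log2 change -0.66, adjusted p = 0.0508 in limma). The remaining 14 members that fell were ZNF280B, ZNF131, ZNF518A, ZNF670, ZNF143, ZNF778, ZNF518B, ZNF398, ZNF148, ZNF638, ZNF146, ZNF200, ZNF558 and ZNF207. With the composition correction described below, the changes of ZNF207, ZNF148 and ZNF146 went from -0.31, -0.50 and -0.41 to 0.16, 0.005 and 0.002. Those of ZNF131 and ZNF143 stayed below 0, at -0.27 each.

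ZNF219, a cofactor of SOX9 in cartilage, rose most. It was at 2.06 and 2.25 FPKM in siNC and at 4.95, 5.32 and 6.30 FPKM in siHHEX, a log2 change of 1.04 ± 0.14 (SE, adjusted p = 0.00387 in limma). It was also high in siYAP/TAZ, at 4.21 and 5.05 FPKM, and in siTEAD1/2/3/4, at 5.40 FPKM, so that no knockdown library overlapped siNC. ZNF629 was at 4.75 and 5.09 FPKM in siNC and at 9.06, 11.3 and 10.6 FPKM in siHHEX, a log2 change of 0.93 ± 0.13 (adjusted p = 0.00413 in limma). ZNF76, a relative of the activator ZNF143, was at 2.88 and 3.18 FPKM in siNC and at 6.45, 6.37 and 6.97 FPKM in siHHEX, a log2 change of 0.92 ± 0.12 (adjusted p = 0.00387 in limma). In both genes the siHHEX libraries lay close together and above siNC.

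ZNF358 differed between the controls, at 6.17 and 4.36 FPKM, and was at 9.37, 12.5 and 10.6 FPKM in siHHEX, a log2 change of 0.92 ± 0.18 (adjusted p = 0.00968 in limma). ZNF385A, which steers p53 towards genes of cell cycle arrest, was at 8.77 and 8.59 FPKM in siNC and at 14.9, 12.7 and 21.5 FPKM in siHHEX, a log2 change of 0.81 ± 0.21 (adjusted p = 0.0213 in limma). ZNF771, ZNF444 and ZNF428 rose by 0.66, 0.60 and 0.60 on the log2 scale (adjusted p = 0.00863, 0.0126 and 0.0109 in limma). The remaining 11 members that rose were ZNF775, ZNF511, ZNF784, ZNF512B, ZNF768, ZNF503, ZNF324B, ZNF205, ZNF48, ZNF579 and ZNF646.

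**Figure D2:**
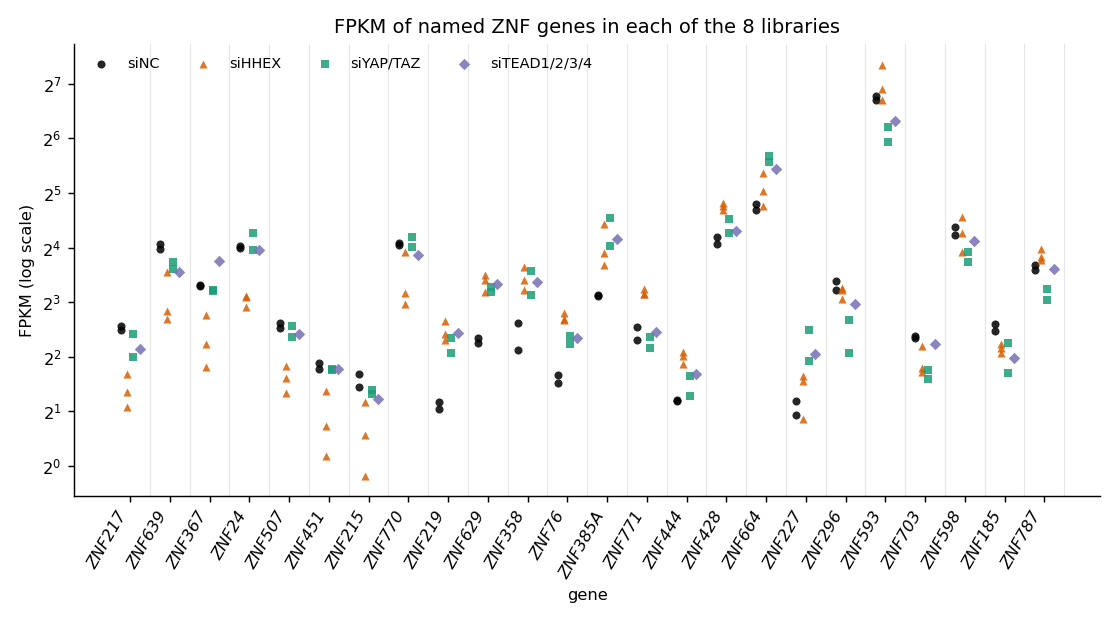
FPKM (log scale) of the ZNF genes with the lowest and highest changes in siHHEX and in siYAP/TAZ, one point per library, with siNC in black, siHHEX in orange, siYAP/TAZ in green and siTEAD1/2/3/4 in violet. The 3 siHHEX points of ZNF24 lie near 8 FPKM while the other 5 libraries lie between 15.5 and 19.2 FPKM, and all 6 knockdown points of ZNF219 lie above both siNC points.

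The direction in siHHEX went with the GC content of the transcript. Of the 64 members under 45% GC, 19 fell and 0 rose, and of the 58 members at 55% GC or more, 0 fell and 19 rose. The shares were below those of other genes in the same bands. Under 40% GC 39.1% of members and 52.1% of other genes fell, and from 40% to 45% GC 24.4% and 37.8%. From 55% to 60% GC 16.7% of members and 33.9% of other genes rose, and at 60% GC or more 40% and 45.1%. These differences were not tested. The 2 other members that fell were between 45% and 50% GC. By bands of GC, the median log2 change of the members was -0.47 under 40% GC (n = 23), -0.31 from 40% to 45% (n = 41), -0.14 from 45% to 50% (n = 23), 0.12 from 50% to 55% (n = 15), 0.21 from 55% to 60% (n = 18) and 0.25 at 60% or more (n = 40). Genes outside the family with at least 2 FPKM in siNC followed the same order, with -0.50, -0.36, -0.12, 0.14, 0.30 and 0.40. The order of the bands was thus shared by genes of any name.

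The trend was present in each siHHEX library and was weakest in siHHEX 2. Across the 160 members, which share each library and are not independent, Spearman's rho between GC content and the log2 change from siNC was 0.684, 0.572 and 0.769 in siHHEX 1 to 3, and across all tested genes 0.679, 0.599 and 0.756. In siYAP/TAZ it was -0.123 and -0.195 across members, and 0.061 and -0.052 across all tested genes. In siTEAD1/2/3/4 it was 0.140 across members and 0.301 across all tested genes. Each library was also corrected for a smooth trend on GC content and transcript length, called the composition correction below. After it, 2 members fell in siHHEX and 5 rose, against 3.13% and 3.17% of the corrected genes. ZNF217 and ZNF703 were the 2 lower genes, and ZNF219, ZNF629, ZNF76, ZNF664 and ZNF721 the 5 higher ones. ZNF217, ZNF219, ZNF629 and ZNF76 were called with and without the correction. ZNF358, ZNF385A, ZNF771, ZNF444 and ZNF428 were not called after the correction (adjusted p from 0.175 to 0.596 in limma). Corrected log2 changes were 0.47 in ZNF358, 0.43 in ZNF385A, 0.15 in ZNF444 and 0.12 in ZNF428. Of the 8 members with the lowest change, ZNF217 was the only one called after the correction (log2 change -0.60, adjusted p = 0.0462 in limma), and over its 14 alternatives its adjusted p ran from 0.00334 to 0.0878. The other 7 were still below siNC, ZNF367 by more than ZNF217, with corrected log2 changes of -0.64 in ZNF367, -0.51 in ZNF639, -0.41 in ZNF24, -0.35 in ZNF507, -0.30 in ZNF215, -0.26 in ZNF451 and -0.16 in ZNF770 (adjusted p from 0.0558 to 0.552 in limma).

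**Figure D3:**
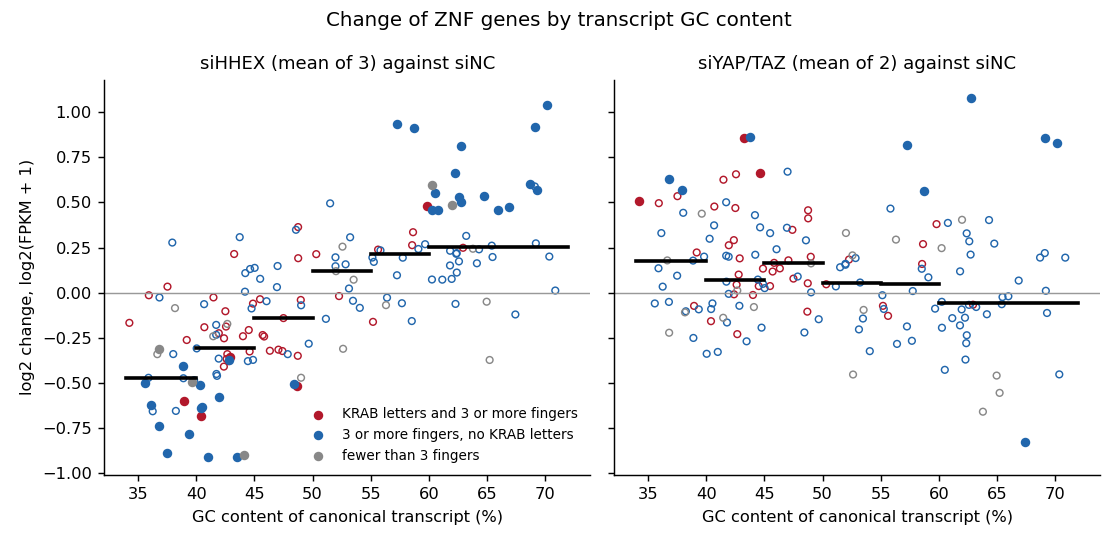
Log2 change of each ZNF gene against siNC by the GC content of its transcript (%), in siHHEX (left) and siYAP/TAZ (right). Filled points had an adjusted p under 0.05 in limma, colours give the protein class and black lines the median of each band of GC, which goes from -0.47 to 0.25 in siHHEX and from 0.18 to -0.06 in siYAP/TAZ.

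KRAB members had a median log2 change of -0.19 in siHHEX, with 4 lower (ZNF215, ZNF670, ZNF778 and ZNF558) and 1 higher (ZNF324B) of 42. These were 9.52% and 2.38%, below the 16.9% and 16.0% of all tested genes. The other members with 3 or more fingers had a median of 0.08 with 14 lower and 16 higher of 100, and the difference between the classes was not tested. The medians of KRAB members were -0.21, -0.08 and -0.30 in siHHEX 1 to 3. KRAB members also had the lower GC content, with a median of 44.7% against 53.0%. After the correction their median was 0.02 with 0 called, where 3.13% of the corrected genes were lower and 3.17% higher. Within the band from 40% to 45% GC, the median was -0.24 in 17 KRAB members and -0.37 in 24 members without the letters. From 45% to 50% the order was the other way, with -0.24 in 12 KRAB members and -0.05 in 11 without the letters.

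**Figure D4:**
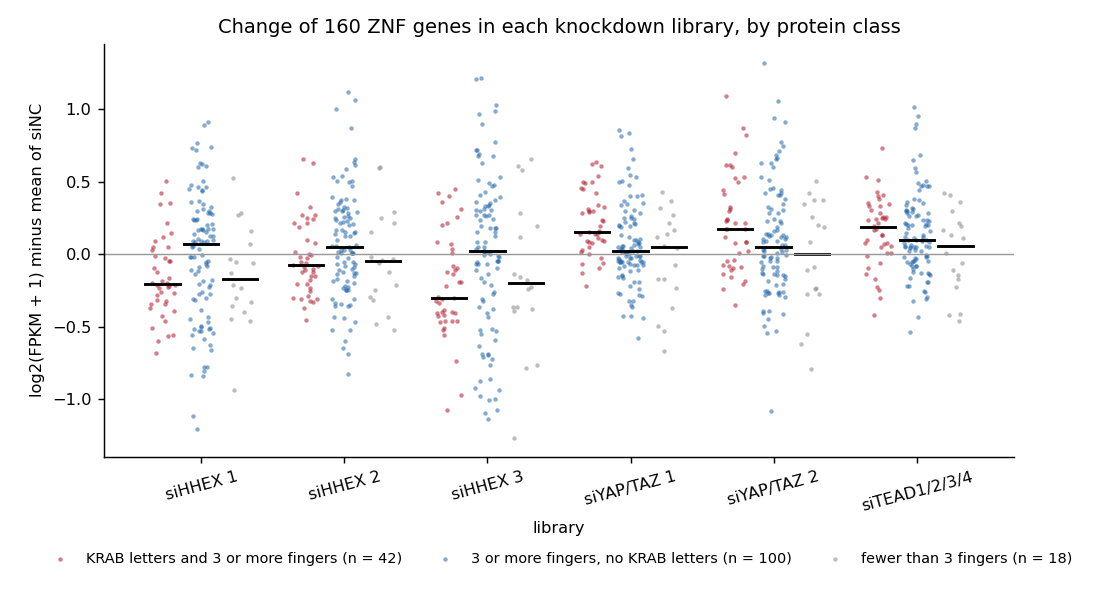
Change of the 160 ZNF genes from the mean of siNC in each knockdown library, log2(FPKM + 1), by protein class, one point per gene with black bars at the class median. KRAB genes (red) have medians of -0.21, -0.08 and -0.30 in the siHHEX libraries and 0.15, 0.17 and 0.18 in the siYAP/TAZ and siTEAD1/2/3/4 libraries.

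Knockdown of YAP and TAZ raised 11 members and lowered 1. All tested genes were called higher in 6.15% and lower in 2.13%, and the members' 6.88% and 0.625% were close to that. The median change was 0.08 on the log2 scale both in the members and in all tested genes. In the library counts, 64 members lay above both siNC libraries in both siYAP/TAZ libraries and 34 lay below, 40% and 21.3%, where 42.9% and 24.8% of all tested genes did. Past 2-fold on the log2(FPKM + 1) scale with an unadjusted p under 0.05, ZNF385A was called higher and 0 members lower, against 1.14% and 0.431% of all tested genes. With the fold of FPKM means, ZNF385A, ZNF227 and ZNF219 were called higher and 0 members lower, against 4.80% and 0.702% of all tested genes. Scaling each library to the median of all genes moved the median of all tested genes by about 0.1, from 0.08 to -0.02, and that of the members from 0.08 to -0.02. With that scaling, 5 members rose and 3 fell, 3.13% and 1.88% against 3.28% and 3.16% of all tested genes. The calls needed siYAP/TAZ 2 and both siNC libraries, and so did most calls among all tested genes. Without siYAP/TAZ 2 the median was 0.07 in the members and 0.07 in all tested genes. It was 0.09 and 0.08 without siNC 1, and 0.10 and 0.08 without siNC 2. Without siHHEX 1, which only lends its spread, 4 rose, 2.5% against 3.896%. In a fit of siYAP/TAZ and siNC alone, 19 rose and 7 fell, 11.9% and 4.38% against 11.4% and 5.05%. After the composition correction 16 rose and 5 fell, 10% and 3.13% against 9.18% and 3.37% of the corrected genes.

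ZNF385A rose most in siYAP/TAZ, to 16.3 and 23.2 FPKM from 8.77 and 8.59 FPKM, a log2 change of 1.08 ± 0.23 (SE, adjusted p = 0.0281 in limma). ZNF664, the fourth most abundant member, was at 27.8 and 25.6 FPKM in siNC and at 47.6 and 51.0 FPKM in siYAP/TAZ, a log2 change of 0.86 ± 0.18 (adjusted p = 0.025 in limma). It was spread in siHHEX, at 32.8, 41.4 and 27.1 FPKM, and was at 43.5 FPKM in siTEAD1/2/3/4. ZNF227, a KRAB gene with 18 fingers, was at 2.28 and 1.90 FPKM in siNC and at 3.76 and 5.58 FPKM in siYAP/TAZ, a log2 change of 0.86 ± 0.22 (adjusted p = 0.046 in limma). ZNF358, ZNF219 and ZNF629 rose by 0.86, 0.83 and 0.82 (adjusted p = 0.0358, 0.0172 and 0.0155 in limma). The other members that rose were ZNF436, ZNF714, ZNF721, ZNF76 and ZNF92.

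ZNF296, a gene known from work on pluripotent cells, was the only member that fell in siYAP/TAZ. It was at 9.38 and 10.5 FPKM in siNC and at 6.33 and 4.17 FPKM in siYAP/TAZ, a log2 change of -0.83 ± 0.18 (adjusted p = 0.0266 in limma). It was at 8.36, 9.31 and 9.52 FPKM in siHHEX, with siHHEX 3 inside the range of siNC, and at 7.82 FPKM in siTEAD1/2/3/4. ZNF593, the most abundant member, was at 104.5 and 109.3 FPKM in siNC and at 73.8 and 61.4 FPKM in siYAP/TAZ, but missed the threshold (log2 change -0.66, adjusted p = 0.067 in limma). ZNF703, an oncogene of luminal breast cancer, ZNF787, ZNF598 and ZNF185, a LIM domain protein of the actin cytoskeleton, had changes of -0.56, -0.45, -0.46 and -0.45 (adjusted p = 0.0623, 0.0681, 0.159 and 0.115 in limma). After the composition correction, ZNF593, ZNF703, ZNF787 and ZNF511 were called lower beside ZNF296, with adjusted p = 0.0177, 0.0196, 0.0296 and 0.0418 in limma.

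Because siNC served both to choose the members and as the control of all these comparisons, the choice was also split between the siNC libraries. Members chosen on siNC 1 and compared with siNC 2 had a median log2 change of -0.01 in siHHEX and 0.08 in siYAP/TAZ (n = 158), and those chosen on siNC 2 and compared with siNC 1 had -0.02 and 0.10 (n = 157). Members chosen on the mean of all 8 libraries had -0.03 and 0.12 (n = 167). The medians also varied with level, and in the 70 members at 5 FPKM or more they were 0.05 in siHHEX and -0.08 in siYAP/TAZ. From 2 to 4 FPKM, the median in siYAP/TAZ was 0.20 in 71 members and 0.20 in 1662 other genes, and at 16 FPKM or more it was -0.16 in 14 members and -0.09 in 3173 other genes. From 4 to 8 FPKM it was 0.03 in 51 members and 0.12 in 1951 other genes. From 8 to 16 FPKM the signs differed, with -0.08 in 24 members and 0.03 in 1887 other genes in siYAP/TAZ, and 0.19 and -0.06 in siHHEX.

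Set directly against siYAP/TAZ, siHHEX was lower in 50 members and higher in 14. The difference itself takes no siNC value, though siNC chose the members and lends to the spread of the fit. The counts were 31.3% and 8.75% of the family, against 25.9% and 13.5% of all tested genes. The median was -0.18 on the log2 scale in the members and -0.13 in all tested genes, and the sign in the members turned with their level in siNC. From 2 to 4 FPKM it was -0.30 in 71 members and -0.24 in other genes, and from 4 to 8 FPKM -0.09 in 51 members and -0.21 in other genes. From 8 to 16 FPKM it was 0.17 in 24 members, where other genes had -0.09, and at 16 FPKM or more 0.07 in 14 members and 0.12 in other genes. In the 70 members at 5 FPKM or more the median was 0.10, with 14 lower and 11 higher. These were 20% and 15.7%, against 25.9% and 13.5% of all tested genes at any level. Median scaling brought the median of all members to -0.07. All 3 siHHEX libraries were below both siYAP/TAZ libraries in 71 members (44.4%) and above them in 35 (21.9%), where 37.8% and 23.0% of all tested genes were. With each library scaled to its median, 29 members were lower and 27 higher, beside 17.2% and 19.1% of all tested genes. After the composition correction, 11 were lower and 2 higher, 6.88% and 1.25%, against 6.72% and 2.30% of the corrected genes. Without siYAP/TAZ 2, 10 members were lower and 2 higher, 6.25% and 1.25% against 5.79% and 3.82% of all tested genes, and without siYAP/TAZ 1, 21 and 9, 13.1% and 5.63% against 17.9% and 9.66%. Without siHHEX 1, 25 were lower, 15.6% against 16.9%. Without either siNC library 32 were lower and 8 higher, 20% and 5% against 18.5% and 9.44% without siNC 1 and 18.5% and 9.43% without siNC 2.

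Members with the KRAB letters made up 22 of the 50 lower members and 0 of the 14 higher ones, with boxes of other letters not counted. These were 52.4% and 0% of the 42 KRAB members, against 25.9% and 13.5% of all tested genes. The median of the 42 KRAB members was -0.41, and that of the 100 others with 3 or more fingers 0.01. After the correction these medians were -0.20 and -0.10, with 3 KRAB members lower, 7.14% against 6.72% of the corrected genes. In the bands of GC the KRAB members had no lower median than other genes where GC was under 40%, at -0.51 in 5 KRAB members and -0.55 in other genes. From 40% to 45% it was -0.52 in 17 KRAB members and -0.41 in other genes, and from 45% to 50% -0.38 in 12 KRAB members and -0.16 in other genes. These differences between classes were not tested.

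ZNF436, a KRAB gene with 12 fingers, had the lowest value in this comparison. It was at 2.29, 2.19 and 2.00 FPKM in siHHEX and 4.44 and 6.23 FPKM in siYAP/TAZ, with siNC between them at 2.89 and 3.03 FPKM, and the log2 difference was -0.99 ± 0.15 (SE, adjusted p = 0.00411 in limma). The 3 groups did not overlap, and siTEAD1/2/3/4 was at 4.64 FPKM. ZNF24 (-0.98, adjusted p = 0.00407 in limma) was low in siHHEX and near siNC in siYAP/TAZ, as its values above show. ZNF518A was at 1.94, 2.60 and 1.54 FPKM in siHHEX and 4.32 and 5.31 FPKM in siYAP/TAZ, with siNC at 3.82 and 3.40 FPKM (-0.95, adjusted p = 0.00539 in limma). ZNF638, which binds cytidine-rich DNA and helps silence unintegrated retroviral DNA, was at 4.52, 4.86 and 3.30 FPKM in siHHEX and 8.43 and 9.35 FPKM in siYAP/TAZ, with siNC at 6.31 and 6.28 FPKM (-0.93, adjusted p = 0.00483 in limma). ZNF627, a KRAB gene, had a difference of -0.84 (adjusted p = 0.00783 in limma), which missed the threshold without siYAP/TAZ 2 (adjusted p = 0.0673 in limma). ZNF436, ZNF24, ZNF638, ZNF627 and ZNF251 were called lower with and without the correction, and ZNF276, ZNF513, ZNF672, ZNF786, ZNF839 and ZNF865 with it only.

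ZNF511 had the highest value in the same comparison. It was at 40.9, 34.3 and 43.3 FPKM in siHHEX and 20.9 and 18.03 FPKM in siYAP/TAZ, with siNC at 25.7 and 27.3 FPKM between them (log2 difference 0.98 ± 0.13, adjusted p = 0.00407 in limma). Of the 14 higher members it was the 1 called after the correction too. ZNF207 was called higher only with the correction, its log2 difference turning from -0.09 (adjusted p = 0.514 in limma) to 0.47 (adjusted p = 0.0263 in limma). ZNF593 was at 119.6, 103.9 and 163.6 FPKM in siHHEX and 73.8 and 61.4 FPKM in siYAP/TAZ (0.90, adjusted p = 0.00723 in limma). ZNF771, ZNF296 and ZNF775 followed with 0.80, 0.71 and 0.68 (adjusted p = 0.00445, 0.0112 and 0.0128 in limma). ZNF593, ZNF296 and ZNF775 missed the threshold without siYAP/TAZ 2 (adjusted p = 0.064, 0.088 and 0.101 in limma).

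The siTEAD1/2/3/4 group is a single library, so its differences have no replicate check. No test was run on them, and members were counted past 1.5-fold on the log2(FPKM + 1) scale. ZNF219, ZNF385A, ZNF629, ZNF358, ZNF227, ZNF664, ZNF76 and ZNF512B were higher by that measure, 8 members or 5%, and 0 were lower, against 4.15% and 2.18% of all tested genes. The median was 0.11 in the members, 0.06 in all tested genes and 0.18 in KRAB members. From 2 to 4 FPKM the medians were 0.23 in 71 members and 0.13 in 1662 other genes. The highest changes were 1.02 in ZNF219 and 0.95 in ZNF385A. ZNF22 was the lowest, at 7.51 FPKM against 11.4 and 11.3 FPKM in siNC, a log2 difference of -0.54. ZNF185, ZNF639, ZNF593 and ZNF23 followed at -0.46, -0.43, -0.42 and -0.42.

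Several members were among the lowest or highest in more than 1 comparison with siNC. All these comparisons share the siNC libraries, so a low or high siNC value moves all of them the same way, and the genes below were picked for being extreme in several. Side by side, the log2 changes were 1.04, 0.83 and 1.02 in siHHEX, siYAP/TAZ and siTEAD1/2/3/4 for ZNF219. They were 0.93, 0.82 and 0.90 for ZNF629, and 0.92, 0.86 and 0.87 for ZNF358. For ZNF385A they were 0.81, 1.08 and 0.95, and for ZNF76 0.92, 0.56 and 0.59. These 5 transcripts were at 70.2%, 57.2%, 69.2%, 62.8% and 58.7% GC in the order named above. ZNF227 and ZNF664 were high in siYAP/TAZ and siTEAD1/2/3/4, with 0.21, 0.86 and 0.74 for ZNF227 and 0.31, 0.86 and 0.68 for ZNF664 (siHHEX adjusted p = 0.417 and 0.164 in limma). On the low side the values were -0.91, -0.33 and -0.43 for ZNF639, -0.31, -0.45 and -0.46 for ZNF185, and 0.24, -0.66 and -0.42 for ZNF593. After the composition correction, limma still called ZNF219, ZNF629 and ZNF76 higher in siHHEX, and called ZNF219, ZNF629, ZNF358, ZNF385A and ZNF76 higher in siYAP/TAZ. Between siHHEX and siYAP/TAZ, ZNF76 differed by 0.35 (adjusted p = 0.0454 in limma), and ZNF219, ZNF629, ZNF358 and ZNF385A had log2 differences of 0.21, 0.11, 0.06 and -0.27 (adjusted p = 0.243, 0.495, 0.799 and 0.333 in limma).

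Some members varied widely between the siHHEX libraries. ZNF524 had the largest spread over the siHHEX libraries, at 10.8, 6.11 and 13.4 FPKM, and its siNC values were 7.26 and 5.06 FPKM. ZNF770 and ZNF280C came next, ZNF280C with 2.35, 3.23 and 1.28 FPKM in siHHEX and 3.96 and 4.06 FPKM in siNC (adjusted p = 0.0502 in limma). In all 3 genes siHHEX 2 was the siHHEX library nearest to siNC. At the other end, ZNF592 stayed between 5.62 and 7.08 FPKM in all 8 libraries, ZNF865 between 4.45 and 5.77 FPKM and ZNF587B between 2.90 and 3.89 FPKM, ranges of 0.29, 0.31 and 0.33 on the log2 scale.

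Members were also set apart by their number of fingers. Members with 15 or more fingers had a median siNC mean of 3.17 FPKM (n = 16) and those with 3 to 5 fingers 4.87 FPKM (n = 35), with median log2 changes of 0.20 and 0.06 in siTEAD1/2/3/4 and of 0.20 and -0.01 in siYAP/TAZ. On chromosome 19, the larger groups of neighbouring members differed in median composition. When members less than 1 Mb apart were grouped, the group of 8 from ZNF579 to ZNF444 had no KRAB gene, a median GC content of 68.9% and a median log2 change of 0.37 in siHHEX. The group of 9 from ZNF557 to ZNF562 had 6 KRAB genes, a median GC content of 44% and a median of -0.24, and the most distal group of 13, from ZNF264 to ZNF324, 8 KRAB genes, 46.0% and -0.02. Smaller groups are not given here, and a group could be mixed. ZNF358, at 69.2% GC and with a log2 change of 0.92 in siHHEX, lay in the group from ZNF557 to ZNF562. How alike the genes within these groups are was not measured. The treatment of reads that match several genes is not given in the sources used here, so the values of single cluster members are uncertain.

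The promoters of the members were read for composition and for a TEAD motif. RefSeq windows of GRCh38.p14, from 250 bases before to 50 after the first listed start, were found for 137 of the 160 members. Over these members the SD of GC content was 7.44 percentage points in the windows and 10.07 in the transcripts. The median of the windows was 62.3% GC where the transcript was under 45% GC (n = 59) and 69.7% where it was 60% GC or more (n = 33). The TEAD motif GGAATG, searched on both strands, was in 15.3% of the members' windows and in 14.05% of all 27305 windows.

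The machinery that KRAB proteins use was expressed throughout. TRIM28, the corepressor that binds the KRAB box, was at 268.0 and 277.8 FPKM in siNC, at 308.6, 317.5 and 328.7 FPKM in siHHEX and at 222.9 and 171.8 FPKM in siYAP/TAZ. It was higher in siHHEX than in siYAP/TAZ (log2 difference 0.70, adjusted p = 0.00513 in limma), but not past the threshold after the composition correction (0.36, adjusted p = 0.0671 in limma). Against siNC its changes were 0.22 and -0.48 (adjusted p = 0.163 and 0.0529 in limma), and after the correction -0.13 and -0.49 (adjusted p = 0.462 and 0.0307 in limma). Of 28 genes of KRAB repression and heterochromatin, 6 fell in siHHEX, 21.4% against 16.9% of all tested genes. They were CBX3, a heterochromatin protein that reads methylated histone H3, the deacetylase HDAC2, PPHLN1 of the HUSH complex, MORC3, UHRF1, which brings DNMT1 to hemimethylated DNA, and the remodeller SMARCAD1. EHMT2, a histone methyltransferase, rose, 3.57% against 16.0%. The median of the list was -0.16. In siYAP/TAZ, UHRF1 fell while HDAC1 and ATRX rose, with a median of 0.13, which is 3.57% and 7.14% against 2.13% and 6.15% of all tested genes. Between siHHEX and siYAP/TAZ 12 were lower and 4 higher, 42.9% and 14.3% against 25.9% and 13.5%. After the composition correction 1 was lower and 0 higher, where 6.72% and 2.30% of the corrected genes were. In siTEAD1/2/3/4 none was past 1.5-fold, where 2.18% of all tested genes were lower and 4.15% higher. After the composition correction, UHRF1 was lower and RBBP4 higher in siHHEX, where 3.13% and 3.17% of the corrected genes were.

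The neighbouring ZFP, ZSCAN, ZKSCAN and ZBTB families gave 41 genes with at least 2 FPKM in siNC. Of these, 14 fell and 3 rose in siHHEX, 34.1% and 7.32% against 16.9% and 16.0% of all tested genes, with a median log2 change of -0.30. Their median GC content was 44.9%. The ZNF members with a similar composition, those from 40% to 45% GC, had a median of -0.31. After the correction the 41 genes had a median of -0.08 with 1 lower and 1 higher, 2.44% each against 3.13% and 3.17% of the corrected genes.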

How the data were processed

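The authors deposited 1 FPKM value per gene for each of the 8 libraries. Their processing notes name Trimmomatic 0.36, HISAT2 2.0.5, Cufflinks 2.2.1 and HTSeq 0.9.1. The genome build and annotation are not given in the sources used here. Read counts were not analysed, so no count test was run. From the deposited FPKM, log2(FPKM + 1) was fitted with limma 3.58.1 in R 4.3.3, in 1 fit of 8 libraries and 4 groups with a trend on mean expression, for the 10677 of 20030 rows that reached 1 FPKM in 2 or more libraries. P values were adjusted with the Benjamini-Hochberg method over these rows. Libraries were grouped by their labels. By choice, the single siTEAD1/2/3/4 library was given no p-value.

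GC content, transcript length, fingers and KRAB letters came from the canonical transcripts of GENCODE 44, matched by symbol for all 160 members. For the composition correction, natural splines (4 degrees of freedom each) of GC content and log length were fitted over 10349 tested genes to how far a library lay from the 8-library mean, and the fitted trend was removed. The tests were tried on simulated data, and no result given here rests on that trial. The genes named are the 10 highest in siNC, 3 on either side of the threshold, the 8 lowest and highest in siHHEX, 6 in siYAP/TAZ, 5 in siHHEX against siYAP/TAZ, 5 in siTEAD1/2/3/4, and the 3 of largest spread and of smallest range, with every gene of the lists. Other members are named where a count is given in full, after their values were seen. The members and lists were chosen with earlier results of these data known. Python 3.11.15 with pandas 2.3.3 and matplotlib 3.10.9 was used for the rest.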

Additional observations from a re-analysis of the deposited data

How the results depend on the processing

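Percentages of members called, lower and then higher, were 13.1% and 11.9% in siHHEX, 31.3% and 8.75% in siHHEX against siYAP/TAZ, and 0.625% and 6.88% in siYAP/TAZ. With no filter on low values they were 3.13% and 5.63%, against 2.06% and 2.87% of all rows. In siHHEX against siYAP/TAZ they were 10% and 5.63%, against 6.98% and 4.05%. In siYAP/TAZ they were 0% and 0%, against 0.330% and 0.709%. All rows include those below the filter, so these shares are not of genes at like levels. With the replicate block, siHHEX had 6.88% lower, and siHHEX against siYAP/TAZ 18.8% and 5.63%. Same-numbered libraries did not deviate together (correlations between -0.07 and 0.02), so the numbers give no pairing, and these counts do not speak of a weaker effect. The GC and length correction gave 1.25% and 3.13%, against 3.13% and 3.17% of the corrected genes. It then gave 6.88% and 1.25%, against 6.72% and 2.30%. The correction with the replicate block gave 0.625% and 0%, against 0.899% and 0.512% of the corrected genes. It then gave 0% and 0%, against 1.96% and 0.444%. In a fit of only the groups compared, siHHEX against siYAP/TAZ had 20% and 5%, against 18.6% and 9.45% of all tested genes. Such a fit of siYAP/TAZ had 11.9% higher, against 11.4%. Median scaling gave 18.1% and 16.9% in siHHEX against siYAP/TAZ, beside 17.2% and 19.1% of all tested genes. It gave 3.13% higher in siYAP/TAZ, beside 3.28%. The next calls took a fold over 2 on the log2(FPKM + 1) scale with an unadjusted p under 0.05. In siHHEX they were 0% and 0.625%, against 0.927% and 0.702% of all tested genes. In siYAP/TAZ 0.625% were higher, against 1.14%, and in siHHEX against siYAP/TAZ they were 0% and 0%. The fold of FPKM means was chosen after seeing the data. It gave 1.25% and 2.5% in siHHEX, against 2.32% and 2.44%, and 1.88% higher in siYAP/TAZ, against 4.80%. In siHHEX against siYAP/TAZ it gave 4.38% and 0.625%. For that comparison the shares of all tested genes by these folds are not given. Chosen on one siNC library and compared with the other, members had 0% in either direction in siHHEX and 0% higher in siYAP/TAZ, with 1 library as control, and 5.06% and 6.37% past 1.5-fold higher in siTEAD1/2/3/4. With siNC means of at least 1 FPKM, siHHEX against siYAP/TAZ had 5.81% higher. With at least 5 FPKM it had 20% and 15.7%, and siYAP/TAZ 4.29% higher. Shares of other genes at these levels are not given. In siTEAD1/2/3/4, 5% past 1.5-fold higher became 10% with a pseudocount of 0.1, while all tested genes went from 4.15% to 9.05%.

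The 1 member lower in siYAP/TAZ (0.625%) became 4.38% in a fit of only the groups compared, 1.88% with the replicate block or median scaling, 3.13% with the GC and length correction and 2.5% with both that and the block. It became 0.415% and 1.43% with siNC means of at least 1 and 5 FPKM, and 0% with no filter, by either fold over 2 or with members chosen on one siNC library. The 0% lower in siTEAD1/2/3/4 became 1.25% with a pseudocount of 0.1 and 0.625% with median scaling. All tested genes were at 3.10% and 2.85% in these settings. For siYAP/TAZ lower, all tested genes were at 5.05% in a fit of only the groups compared. They were at 2.36% with the replicate block and 3.16% with median scaling. The corrected genes were at 3.37%, and at 2.72% with the block as well.

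Leaving out 1 library at a time, siHHEX ran from 0% to 25.6% lower and from 0% to 15% higher, siHHEX against siYAP/TAZ from 6.25% to 35% lower and from 1.25% to 11.3% higher, siYAP/TAZ from 0% to 2.5% lower and from 0% to 10% higher and siTEAD1/2/3/4 from 4.38% to 6.88% higher. The upper ends in siHHEX, siHHEX against siYAP/TAZ and siYAP/TAZ came without siHHEX 2. All tested genes were then at 24.9% and 20.4%, 31.9% and 16.4%, and 3.46% and 8.88%. A lone siNC library is assumed to vary like the other groups. The cause of these moves was not tested. The other 72 percentages recomputed stayed within 1.5 times their value. After the GC and length correction, 1 member, ZNF207, was called with the opposite sign, in siHHEX against siYAP/TAZ (-0.09 to 0.47). With 1 siTEAD1/2/3/4 library, the replicate block and the fit of only the groups compared were not run for it. With 2 or 3 libraries a group and unknown read depth, differences of less than about 1.5-fold in members near 2 FPKM are poorly resolved.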
